A study of Mus musculus with 4 samples.

Results

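Expression of 9 genes that guide monocytes and macrophages was measured in single cells of a prostate cancer graft and of subcutaneous adipose tissue (SAT). The genes, out of 31053 listed in each count table, were the CC chemokines Ccl2, Ccl7, Ccl8, Ccl12, Ccl3, Ccl4 and Ccl6, the CC chemokine receptor Ccr2 and the fractalkine receptor Cx3cr1. They were taken by name, with earlier results of these data known. In macrophages with C1q transcripts, Ccl12 and Cx3cr1 were the members at least 2-fold higher in tumor than in SAT in both pairs of libraries. Ccl2, Ccl7 and Cx3cr1 passed the same mark in perivascular cells, where Cx3cr1 rested on 7 and 3 tumor cells. In fibroblasts Cx3cr1 alone passed this mark, resting on 6 and 8 tumor cells. Fibroblast Ccl2 and Ccl7 fell just short in the D-CAN pair, at log2 ratios of 0.99 and 0.97, and 1 or both passed under most alternative settings. In endothelial cells Ccl2, Ccl8 and Cx3cr1 passed it, but Ccl8 rested on 1 cell in the PBS pair. Endothelial Ccl2 had 18 of its 21 Tumor D-CAN transcripts in 1 cell. It did not pass after cells were thinned to 1000 UMIs or with a mean over cells. In endothelial cells without phagocyte transcripts Ccl2 alone passed. The phagocyte clusters held more than 50% of the transcripts of 9 of 9 members in both tumor libraries but of 4 of 9 in each SAT library. How many of all genes passed that mark was not computed, so these counts have no background. These clusters made up 640 of 2761 and 426 of 1487 cells in the PBS and D-CAN tumors, and 145 of 2841 and 71 of 1897 in SAT. In tumors they included cells with T, NK, dendritic or neutrophil genes, which had no class there. In SAT D-CAN, Ccl12 counted among the 4 with 1 transcript, and 1 member remained without the 10 cells richest in each. T and NK cells were 25.9% and 40.8% of the cells of SAT PBS and SAT D-CAN. Their share of transcripts was larger than that for Ccl3 and Ccl4 in both libraries, and for Ccr2 in SAT PBS alone.

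CC chemokines are small secreted proteins named for a pair of adjacent cysteines near the start of the mature chain. They bind receptors coupled to G proteins on leukocytes and set the direction in which the cells migrate. CCL2, CCL7 and, in the mouse, CCL12 act on CCR2, which classical monocytes need to leave bone marrow and enter inflamed tissue or tumors. CCL3 and CCL4 attract monocytes and lymphocytes, and mouse CCL8 acts on CCR8. CX3CR1 binds the membrane-held chemokine CX3CL1 and is carried by patrolling monocytes and many tissue macrophages. In adipose tissue and in tumors, CCL2 from stromal cells and macrophages is a well known attractant of monocytes.

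The libraries were 1 each of 4 groups. Tumor PBS and Tumor D-CAN held cells of grafts of MycCaP, a line derived from prostate tumors of HiMyc mice and labelled MycCap, placed under the skin of chow-fed mice of the FVB strain, spelled VFB in the labels. SAT PBS and SAT D-CAN held stromal and vascular cells of subcutaneous fat from mice with the same treatments. D-CAN is a peptide that targets adipose stromal cells (ASC), and control mice received PBS. Age at collection was not given, nor whether a library pooled mice. The graft line shares the strain of its host and is a single cell line.

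Because each group was 1 library, no difference between groups has a replicate check and none was tested. Levels are unique molecular identifiers (UMIs, each marking 1 captured RNA molecule) summed over the cells of a class, as CPM, the UMIs of a gene scaled to a fixed total of UMIs in that class. Parentheses give exact 95% Poisson intervals of a level, or exact conditional binomial intervals of a ratio, and cover counting error only. Ratios are log2 with 0.5 UMI added to each sum. A member counted as higher or lower where the fold was at least 2 in the same direction in both pairs, PBS with PBS and D-CAN with D-CAN, among genes with at least 20 UMIs over the 4 sums. A level in a class does not separate more cells with a transcript from more transcripts per cell, and shares of cells after thinning each cell to 1000 UMIs are given for that reason.

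After cells with under 200 genes were left out, 8986 of 9128 cells remained, between 1487 and 2841 a library. The libraries held 6660758 to 17931020 UMIs, with medians of 1707 to 5232 a cell. Classes were named from marker lists and stand for cells like the type named. Macrophage, fibroblast, perivascular, endothelial, T and B cell markers were abundant in their classes. The cancer class rested on 3 of 8 epithelial markers, with Krt8 at 495 and 476 CPM and Cldn3 at 728 and 781 CPM in Tumor PBS and Tumor D-CAN, while Epcam, Cdh1, Krt18 and Cldn7 were at or near 0. C1q+ macrophages, cells of the phagocyte clusters with UMIs of at least 2 of the 3 C1q genes, numbered 449 in Tumor PBS, 257 in Tumor D-CAN, 39 in SAT PBS and 16 in SAT D-CAN. The share of cells in this class was 16.3%, 17.3%, 1.37% and 0.843% of each library. The SAT values of C1q+ macrophages therefore rest on few cells, 16 of them in SAT D-CAN with a median of 4530.5 UMIs against 1336 in SAT PBS. The other cells of the phagocyte clusters, called phagocytes with fewer C1q genes, numbered 191, 169, 106 and 55 and were a mixture. Those of the tumors included 21 and 29 cells of a group led by Trbc1, Trbc2 and Nkg7, genes of T and NK cells, and 20 and 16 cells of a group led by S100a8 and S100a9, genes of neutrophils. Those of SAT included groups with Siglech or Xcr1, genes of dendritic cells. Values of this remainder are therefore given as a description of mixed cells.

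The 7 ligand genes lie in a pair of groups on chromosome 11 (GRCm38). Ccl2 (chr11:82035571-82037453), Ccl7 (chr11:82045712-82047525), Ccl12 (chr11:82101845-82103400) and Ccl8 (chr11:82115185-82116799), all on the plus strand, span 81.2 kb. Ccl6 (chr11:83587882-83593087, minus), Ccl3 (chr11:83647844-83649355, minus) and Ccl4 (chr11:83662584-83664683, plus) span 76.8 kb, starting 1471 kb beyond Ccl8. Cx3cr1 (chr9:119901616-120069879, minus) and Ccr2 (chr9:124101950-124113557, plus) lie on chromosome 9. The 30 coding bases around the cysteine pair that gives the family its name are shown for 6 ligands, with both cysteine codons in capitals, because they show how alike and yet how separable the ligands are.
Ccl2: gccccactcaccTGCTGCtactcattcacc
Ccl7: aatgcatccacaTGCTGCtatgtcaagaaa
Ccl8: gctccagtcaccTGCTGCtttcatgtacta
Ccl12: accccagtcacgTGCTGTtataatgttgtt
Ccl4: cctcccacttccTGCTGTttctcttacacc
Ccl6: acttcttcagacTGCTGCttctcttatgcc

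Ccl12 and Ccl4 spell the second cysteine TGT and the other 4 ligands shown TGC. Over the whole coding sequence the 21 ligand pairs were 47.4% to 69.5% identical, with Ccl3 and Ccl4 the closest pair and Ccl7 and Ccl8 next at 66.7%. The longest run of identical bases between transcripts of a pair was 9 to 23 bases and was longest between Ccl2 and Ccl7. Reads of Ccr2 could be shared with related receptor genes, and its counts are less certain for that reason.

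Transcripts of the ligands were counted mainly in the phagocyte clusters in tumors and in a wider set of classes in SAT. No tumor cluster was named T, NK, dendritic or neutrophil, and the tumor phagocyte clusters included cells with genes of those types. In SAT those types had classes of their own, so the shares of the tissues are not divided alike. In Tumor PBS, Ccl12 was the member most confined to phagocytes, which held 98.6% of its 703 UMIs. In Tumor D-CAN they held 96.4% of its 870 UMIs, and a larger share of the Ccl3, Ccl4 and Ccr2 UMIs. Only 10 Ccl12 UMIs were seen in SAT PBS and 1 in SAT D-CAN. By its share in phagocytes, Ccl2 was the most widely spread ligand in the tumor libraries and SAT PBS. In SAT D-CAN the phagocyte shares of Ccl3 and Ccl4 were smaller. Phagocytes held 66.8% and 73.2% of Ccl2 UMIs in the tumor libraries but 32.5% and 39.1% in SAT, where fibroblasts and perivascular cells together held 38.9% and 39.8%. Ccl7 had the same layout, with 68.8% and 76.7% in tumor phagocytes, 50% and 45.1% in SAT phagocytes, and 41.9% and 45.1% in SAT stromal cells. Stromal cells held both ligands in tumors too. In Tumor PBS and Tumor D-CAN, fibroblasts had 146 and 132 Ccl2 UMIs, perivascular cells 149 and 180 and C1q+ macrophages 468 and 615. Fibroblasts were 3.01%, 4.37%, 5.63% and 3.58% of cells in Tumor PBS, Tumor D-CAN, SAT PBS and SAT D-CAN. Perivascular cells were 3.98%, 3.50%, 6.02% and 2.42% in the same order. T and NK cells of SAT held 41.2% and 47.5% of Ccl3, 47.9% and 57.6% of Ccl4 and 35.8% and 33.6% of Ccr2 transcripts. They made up 25.9% and 40.8% of the cells of SAT PBS and SAT D-CAN, so their Ccr2 share in SAT D-CAN was below their share of cells.

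**Figure D1:**
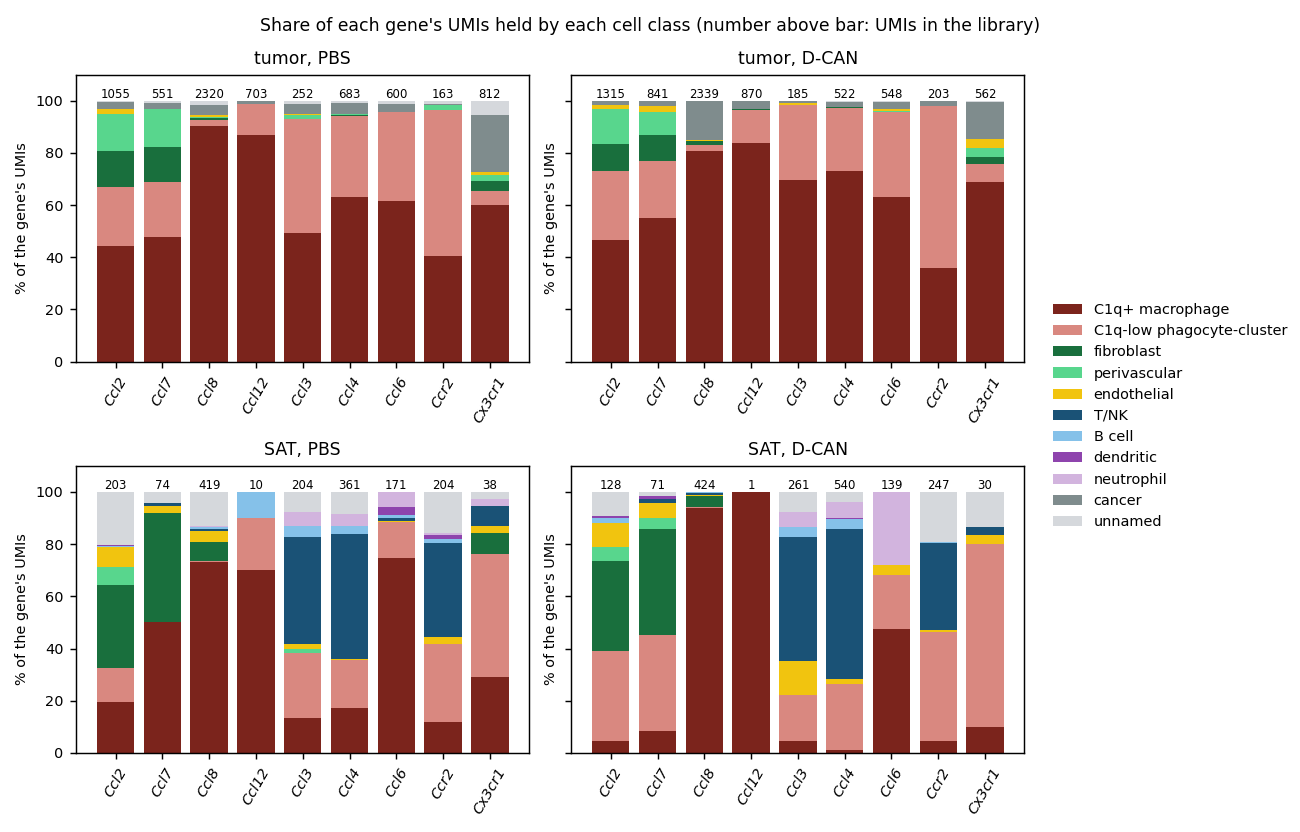
Share of the UMIs of each member (%) held by each cell class in the 4 libraries, with the number of UMIs above each bar. In tumor libraries phagocyte clusters fill most of every bar, while in SAT the T/NK class takes a large part of Ccl3, Ccl4 and Ccr2 and stromal classes a large part of Ccl2 and Ccl7. Stromal classes held part of Ccl2 and Ccl7 in tumors as well. The T/NK class made up 25.9% and 40.8% of the cells of SAT PBS and SAT D-CAN. No tumor cluster was named T/NK, dendritic or neutrophil.

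**Figure D2:**
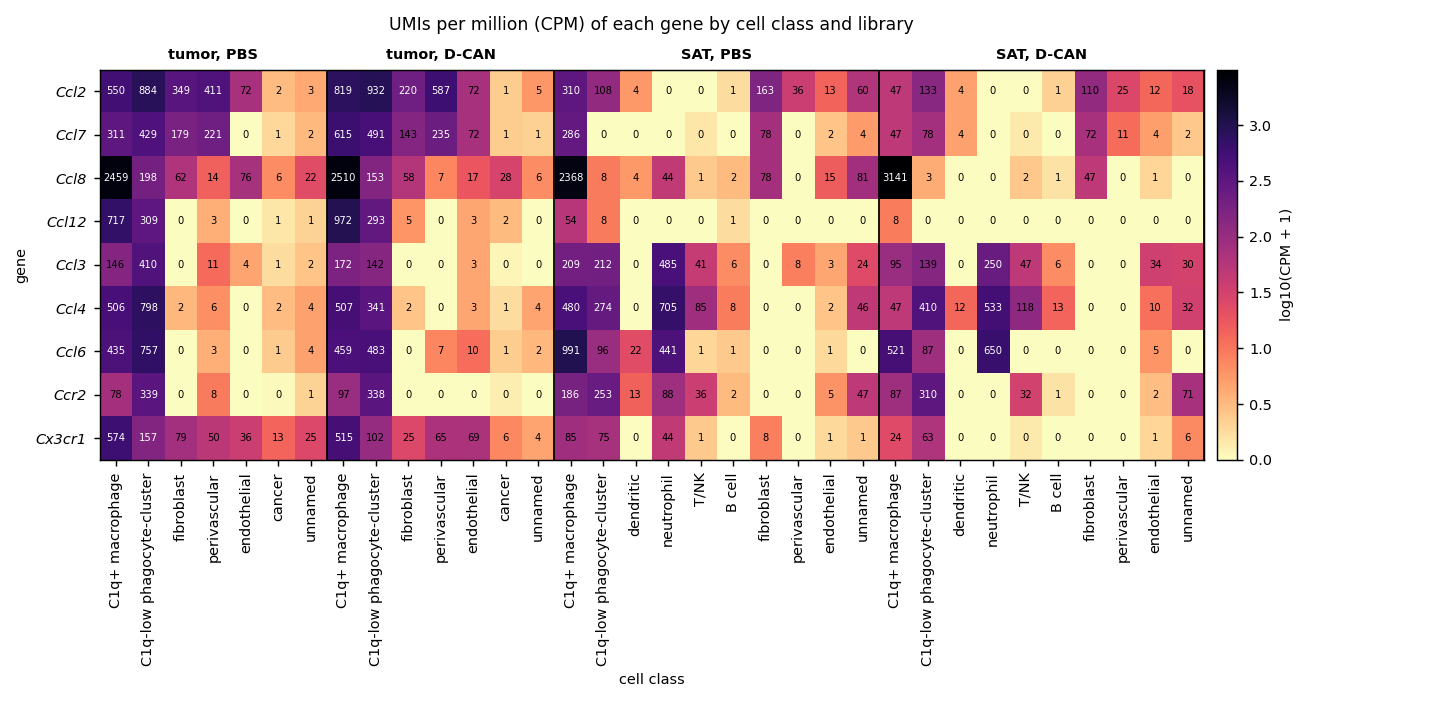
Level of each member (CPM, colour on a log10 scale of CPM + 1) by class and library, with the CPM printed in each field. Ccl8 was at 2368 CPM or more in C1q+ macrophages of each library, though at 761 CPM in SAT D-CAN without 1 cell. Ccl12 was at 717 and 972 CPM in those of the tumor libraries and at 54.2 CPM or less in SAT.

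Ccl12, a mouse ligand of CCR2, was the ligand with the clearest difference between tissues. In C1q+ macrophages its level was 717 CPM (662 to 777) in Tumor PBS and 972 CPM (903 to 1045) in Tumor D-CAN. It was 54.2 CPM (21.8 to 112) from 7 UMIs in SAT PBS and 7.89 CPM (0.200 to 44.0) from 1 UMI in SAT D-CAN. Both tumor libraries lay far above both SAT libraries, with no overlap of the counting intervals. The log2 ratio of tumor over SAT was 3.63 (2.68 to 5.05) in the PBS pair and 6.36 (4.46 to 12.25) in the D-CAN pair. At 1000 UMIs a cell, 30.9% of 343 and 35.1% of 222 tumor macrophages held a Ccl12 UMI, against 7.41% of 27 and 0 of 15 SAT macrophages, the last allowing up to 20% of cells. Without thinning the shares were 39.6%, 46.3%, 12.8% and 6.25% in Tumor PBS, Tumor D-CAN, SAT PBS and SAT D-CAN. In thinned cancer cells, which served as the background, the share was 0.178% of 1123 and 0.161% of 622 cells, at median depths of 12060 and 19641 UMIs before thinning. The phagocytes with fewer C1q genes had 309 and 293 CPM of Ccl12 in tumors, and 8.31 and 0 CPM in SAT. Over the 15 alternative settings the ratio stayed between 2.73 and 4.59 in the PBS pair and between 4.65 and 7.84 in the D-CAN pair.

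Among 7418 genes counted in C1q+ macrophages, 4.38% were at least 2-fold higher and 5.93% at least 2-fold lower in tumor in both pairs. Of the 9 members, which were all counted, 2 were higher, namely Ccl12 and Cx3cr1, and none was lower. The remaining 7 members differed by under 2-fold in at least 1 pair or changed direction between pairs.

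Cx3cr1, the receptor of membrane-held fractalkine, was the other member higher in tumor macrophages. Its level was 574 CPM (524 to 627) in Tumor PBS and 515 CPM (465 to 569) in Tumor D-CAN, against 85.1 CPM (42.5 to 152) in SAT PBS and 23.7 CPM (4.88 to 69.2) from 3 UMIs in SAT D-CAN. The log2 ratio was 2.69 (1.90 to 3.76) in the PBS pair and 4.22 (2.89 to 6.73) in the D-CAN pair, and ranged from 2.56 to 3.61 and from 2.49 to 5.14 over the alternative settings. The tumor macrophages exceeded those of SAT in level and in the share of cells. After thinning, 39.4% and 34.2% of tumor macrophages held a Cx3cr1 UMI, compared with 3.70% and 6.67% of SAT macrophages and with 1.16% and 0.482% of cancer cells in the PBS and D-CAN grafts. Without thinning the shares of macrophages were 51.9%, 58%, 7.69% and 12.5% in Tumor PBS, Tumor D-CAN, SAT PBS and SAT D-CAN. In SAT the level was higher in a small phagocyte group with classical monocyte genes (Lst1, Clec4e) than in C1q+ macrophages, at 180 CPM in 15 PBS cells and 206 CPM in 18 D-CAN cells.

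Cx3cr1 transcripts were also found in tumor cells outside the phagocyte clusters. Fibroblasts held 78.9 (54.3 to 111) and 25.0 CPM (14 to 41.2), perivascular cells 49.7 and 65.3 CPM and endothelial cells 36.0 and 68.7 CPM in Tumor PBS and Tumor D-CAN. In SAT these classes held 0 to 3 UMIs of Cx3cr1 in each library. These transcripts sat in few cells: 18 non-immune cells of Tumor PBS and 11 of Tumor D-CAN had at least 5 Cx3cr1 UMIs and held 62.4% and 70.1% of the Cx3cr1 UMIs of those classes. Of these cells, 13 and 6 had no UMI of the phagocyte genes C1qa, C1qb, C1qc, Lyz2, Csf1r and Ptprc, and 18 and 10 had at most 2. The class of 9 and 7 of them was cancer. No fibroblast, perivascular, endothelial or unnamed cell of SAT reached 5 Cx3cr1 UMIs, but SAT had no cancer class and depths differed. Cancer cells had medians of 12060 and 19641 UMIs in Tumor PBS and Tumor D-CAN. Medians of fibroblasts, perivascular and endothelial cells were 1016 to 1281 UMIs in SAT PBS and 4235.5 to 5882 in SAT D-CAN. The richest tumor cell held 26 Cx3cr1 UMIs among 16501 UMIs.

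**Figure D3:**
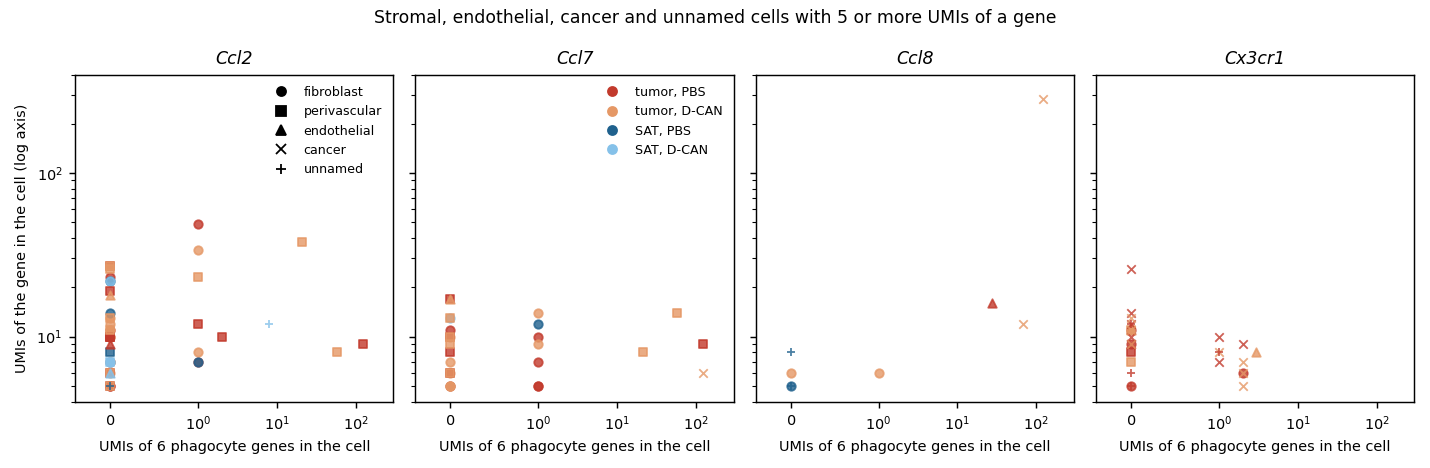
Cells of the stromal, endothelial, cancer and unnamed classes with at least 5 UMIs of Ccl2, Ccl7, Ccl8 or Cx3cr1, by UMIs of that member and by UMIs of 6 phagocyte genes (log axes, the latter linear below 1). Most cells rich in Ccl2 or Cx3cr1 sit at or near 0 phagocyte UMIs, whereas the cell with 285 Ccl8 UMIs has 122.

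Ccl2, the main ligand of CCR2, had no common direction of the same size between tissues in macrophages. Its level in C1q+ macrophages was 550.4 CPM (502 to 603) in Tumor PBS, 819 CPM (756 to 886) in Tumor D-CAN, 309.6 CPM (221 to 422) in SAT PBS and 47.3 CPM (17.4 to 103) in SAT D-CAN. The value of SAT D-CAN, from 6 UMIs, stood below the others. The log2 ratio of tumor over SAT was 0.81 (0.36 to 1.33) in the PBS pair, under 2-fold, and 4.0 (2.98 to 5.56) in the D-CAN pair. In the PBS pair the ratio ranged from -0.86 to 1.81 over the alternative settings. After thinning, the share of macrophages with a Ccl2 UMI was 21.6%, 26.1%, 33.3% and 13.3% in Tumor PBS, Tumor D-CAN, SAT PBS and SAT D-CAN, so that the PBS pair went the other way in this measure. Without thinning the shares were 28.3%, 42.4%, 43.6% and 25% in the same order. Cancer cells, thinned, had Ccl2 UMIs in 0.0890% and 0.161% of cells.

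Ccl7, which also acts on CCR2, was, like Ccl2, past 2-fold in the D-CAN pair and not in the PBS pair. C1q+ macrophages held 311 CPM (274 to 350.3) in Tumor PBS, 615 CPM (560.4 to 674) in Tumor D-CAN, 286 CPM (202 to 395) in SAT PBS and 47.3 CPM (17.4 to 103) in SAT D-CAN. The macrophages of Tumor PBS and SAT PBS had overlapping intervals, at a log2 ratio of 0.10 (-0.38 to 0.65). A single SAT PBS macrophage held 18 of the 37 Ccl7 UMIs there. Without the richest cell of each library the PBS levels were 298 CPM (262 to 337) in tumor and 149 CPM (90.0 to 233) in SAT, intervals apart at a ratio of 0.96, and over the alternative settings the ratio ran from -0.93 to 1.74. In the D-CAN pair the ratio was 3.59 (2.57 to 5.15). Phagocytes with fewer C1q genes had 884 and 932 CPM of Ccl2 and 429 and 491 CPM of Ccl7 in tumors, against 108 and 133 CPM of Ccl2 and 0 and 78.3 CPM of Ccl7 in SAT.

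**Figure D4:**
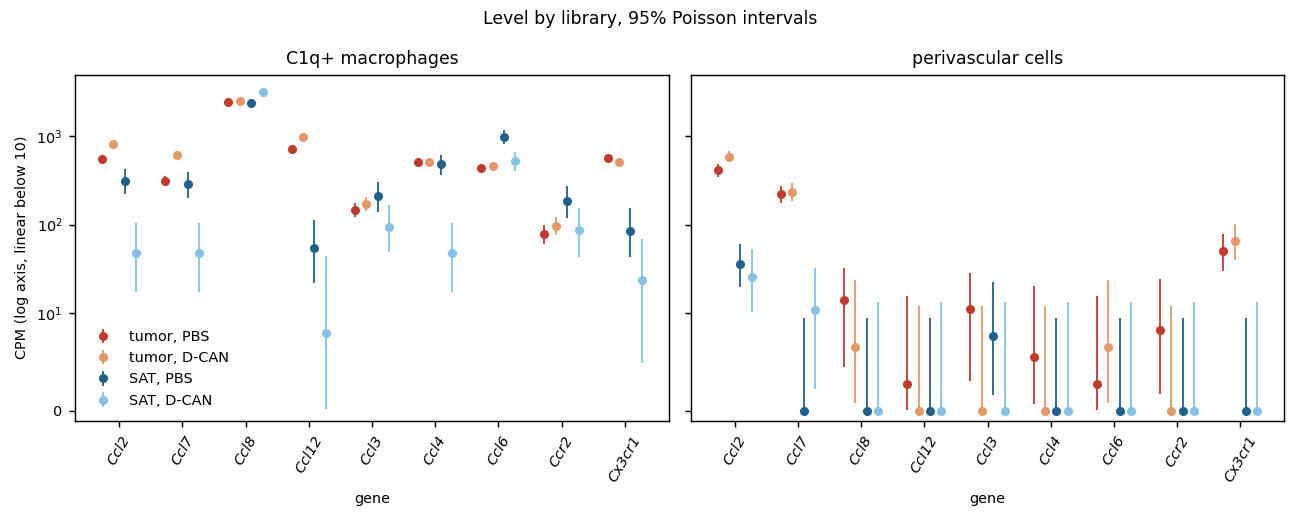
Level of each member (CPM, log axis that is linear below 10) in C1q+ macrophages and perivascular cells of the 4 libraries, with exact 95% Poisson intervals. Ccl12 and Cx3cr1 are separated by tissue in macrophages, and Ccl2, Ccl7 and Cx3cr1 in perivascular cells, while Ccl8 is at 2368 CPM or more in macrophages of each library, with 327 of its 398 UMIs in SAT D-CAN in 1 cell.

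Perivascular cells, the contractile cells around small vessels, showed the largest difference in Ccl2 between tissues among the 4 classes compared. The Ccl2 level was 411 CPM (348 to 483) in Tumor PBS and 587 CPM (505 to 679.7) in Tumor D-CAN, against 35.8 CPM (19.5 to 60) in SAT PBS and 25.4 CPM (10.2 to 52.3) in SAT D-CAN, where 1 cell held all 7 UMIs. The log2 ratio was 3.48 (2.73 to 4.43) and 4.44 (3.46 to 5.87). It was 4.35 in the PBS pair without the cell richest in Ccl2 of each library, and in the D-CAN pair no SAT UMI remained. Ccl7 had 80 UMIs or 221 CPM (175 to 275) in Tumor PBS and 72 UMIs or 235 CPM (184 to 296) in Tumor D-CAN. In SAT perivascular cells it had 0 UMIs in the PBS library and 3 in the D-CAN library. Set against the floor of 3 counts, Ccl7 was at least 28.8-fold higher in Tumor PBS than in SAT PBS, and the D-CAN pair had a log2 ratio of 4.22 (2.83 to 6.74). Cx3cr1 had 18 UMIs in 7 cells of Tumor PBS, and 20 UMIs in 3 cells of Tumor D-CAN, where 2 cells held 18 of them. It had 0 in both SAT libraries, so that the tumor was at least 6.48-fold and 6.0-fold higher against the same floor. These 3 were the members with at least 20 UMIs in the class, where 8.35% of 7482 genes were higher and 12.4% lower in tumor in both pairs.

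Ccl2 and Ccl7 of tumor perivascular cells stood closer to their macrophage levels than C1qa, Lyz2 and Apoe did. Ccl2 stood at 74.7% and 71.7% of its level in C1q+ macrophages, and Ccl7 at 71.1% and 38.2%, in Tumor PBS and Tumor D-CAN. C1qa stood at 1.48% and 0.90%, Lyz2 at 1.29% and 0.65% and Apoe at 0.90% and 0.97%. Their levels were 127 and 75.1 CPM for C1qa, 190 and 101 CPM for Lyz2 and 403 and 372 CPM for Apoe. Of other members, Cx3cr1 stood at 8.65% and 12.7%, Ccr2 at 10.7% and 0% and Ccl3 at 7.57% and 0%. Whether carried-over macrophage RNA had a part was not tested. Perivascular cells with no UMI of the 6 phagocyte genes had log2 ratios of tumor over SAT of 3.39 and 4.36 for Ccl2. The immediate early genes, a list of 15 genes that tissue dissociation can induce, moved the other way between the libraries. Their sum in perivascular cells was 2704 and 2343 CPM in the tumor libraries and 11997 and 15638 CPM in the SAT libraries, and its part in the difference of Ccl2 and Ccl7 was not tested. The make-up of the class also differed between tissues. Myh11, a smooth muscle gene, was at 121 and 111 CPM in tumor and 1287 and 2778 CPM in SAT perivascular cells, and Notch3, a gene of mural cells, at 155 and 97.9 CPM against 511 and 889 CPM. Pdgfrb, a pericyte gene, went the other way, at 786 and 741 CPM against 327 and 515 CPM, while Rgs5 was at 1396 and 1224 CPM against 1928 and 2274 CPM. Acta2, another contractile gene, was higher in tumor, at 3281 and 3880 CPM against 2059 and 3768 CPM. Of the other markers of the class, Kcnj8 was higher and Des lower in tumor in both pairs. Cspg4 and Abcc9 were higher in tumor in the PBS pair and lower in the D-CAN pair, so the markers had no common direction. The part of this make-up in the ratios was not tested either.

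Fibroblasts expressed Ccl2 and Ccl7 in both tissues. Ccl2 was 349 CPM (295 to 410.4) in Tumor PBS, 219.7 CPM (184 to 261) in Tumor D-CAN, 163 CPM (126 to 208) in SAT PBS and 109.7 CPM (79.7 to 147) in SAT D-CAN. The tumor libraries were the higher in each pair, with log2 ratios of 1.09 (0.67 to 1.54) and 0.99 (0.50 to 1.53), the second just under 2-fold. Ccl7 had ratios of 1.19 (0.58 to 1.86) and 0.97 (0.36 to 1.65), from levels of 179 and 143 CPM in tumors and 77.8 and 72.3 CPM in SAT. Without the richest cell of each library the ratios were 1.10 and 1.53 for Ccl2 and 1.67 and 1.57 for Ccl7, past 2-fold in both pairs. Ccl8 differed by less, at -0.32 (-1.13 to 0.47) and 0.28 (-0.55 to 1.19). Of the 4 members with at least 20 UMIs, only Cx3cr1 was higher in both pairs as counted, at a log2 ratio of 3.19 (1.72 to 5.74) in the PBS pair and at least 3.34-fold against the floor in the D-CAN pair, beside 8.63% of 7933 genes higher and 7.32% lower. The sum of the immediate early genes was 2883 and 2610 CPM in tumor and 5053 and 9098 CPM in SAT fibroblasts, and its part was again not tested.

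In the stromal, endothelial, cancer and unnamed classes together, Ccl2 sat in few cells. Cells with at least 5 Ccl2 UMIs numbered 19 in each tumor library, 5 in SAT PBS and 6 in SAT D-CAN, and held 69.7%, 80.2%, 41.5% and 81.3% of the Ccl2 UMIs of these classes in Tumor PBS, Tumor D-CAN, SAT PBS and SAT D-CAN. Of them, 14, 14, 4 and 5 had no UMI of the 6 phagocyte genes. For Ccl7 such cells numbered 11, 15, 1 and 1. Cancer cells, the most numerous tumor class, had Ccl2 levels of 2.08 and 1.28 CPM.

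Endothelial cells had less Ccl2 than fibroblasts in each library. The level was 71.9 CPM (43.9 to 111) in Tumor PBS, 72.2 CPM (44.7 to 110.3) in Tumor D-CAN, 12.9 CPM (7.21 to 21.3) in SAT PBS and 12.0 CPM (6.18 to 20.9) in SAT D-CAN. Both tumor values lay above both SAT values, with log2 ratios of 2.47 (1.44 to 3.55) and 2.57 (1.5 to 3.75). Without the richest cell of each library these were 1.99 and 1.07, and with cells thinned to 1000 UMIs the D-CAN pair had a ratio of -0.028. In Tumor D-CAN 1 cell held 18 of the 21 Ccl2 UMIs, and 11.9 CPM (2.45 to 34.7) remained without it. Ccl8 passed 2-fold in both pairs at 2.36 and 3.66, but 1 Tumor PBS cell held 16 of the 21 Ccl8 UMIs of its class, beside 13 C1qa, 3 C1qb, 1 C1qc and 10 Lyz2 UMIs among 2777. The PBS ratio without the richest cells was 0.68. Cx3cr1 had 10 and 20 UMIs in tumors and 1 in each SAT library, at ratios of 4.87 (2.57 to 10.83) and 5.56 (3.46 to 11.48). Of the 5 members with at least 20 UMIs these 3 were higher, beside 5.58% of 9157 genes higher and 6.07% lower. In endothelial cells without phagocyte UMIs 1 member, Ccl2, was. The immediate early sum was 3841 and 3633 CPM in tumor and 8236 and 12611 CPM in SAT endothelial cells.

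**Figure D5:**
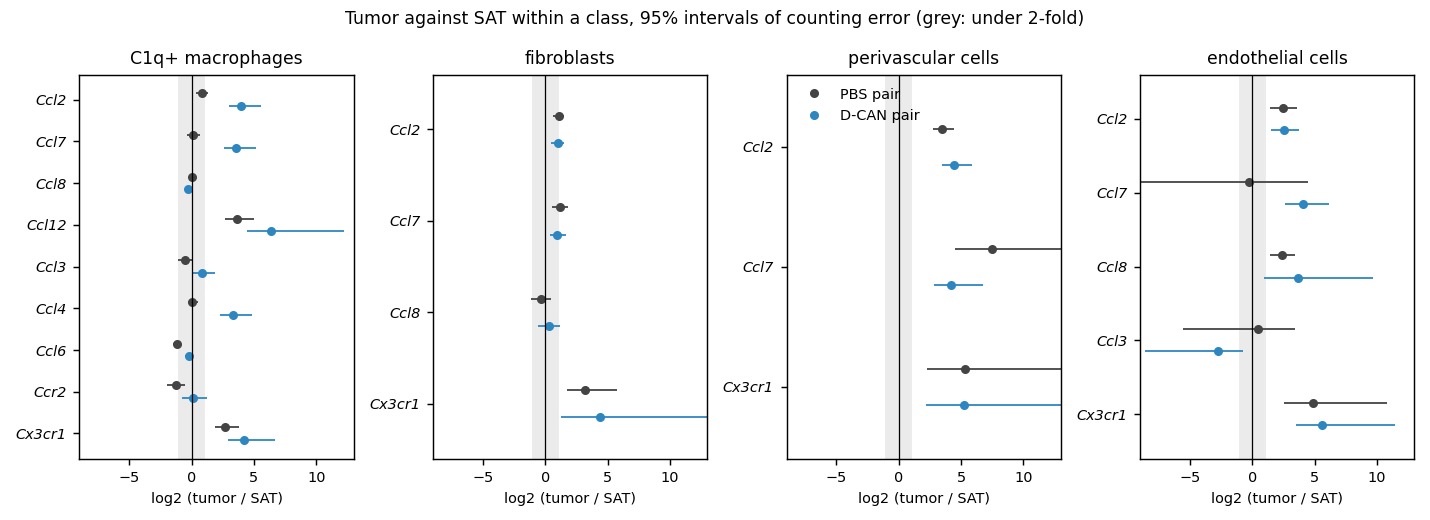
Log2 ratio of tumor over SAT of each member in 4 classes, for the PBS pair (dark) and the D-CAN pair (blue), with exact conditional 95% intervals and a grey band under 2-fold, for members with at least 20 UMIs in the class. Bars that run to the right edge belong to SAT sums of 0 or few UMIs. Ccl12 and Cx3cr1 lie above the band in macrophages in both pairs, and Ccl2, Ccl7 and Cx3cr1 do so in perivascular cells.

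Ccl8, which in the mouse acts on CCR8, had a similar level in C1q+ macrophages of Tumor PBS and SAT PBS. Its level was 2459 CPM (2355 to 2567) in Tumor PBS, 2510.3 CPM (2398 to 2626) in Tumor D-CAN, 2368 CPM (2110.4 to 2649) in SAT PBS and 3141 CPM (2839.8 to 3465) in SAT D-CAN. The log2 ratio was 0.05 (-0.12 to 0.23) in the PBS pair and -0.32 (-0.48 to -0.16) in the D-CAN pair. A single macrophage of SAT D-CAN held 327 of the 398 UMIs, or 82.2%, and without it the level there was 761 CPM (595 to 961) and the ratio of the D-CAN pair 1.58. After thinning, 43.7%, 45.5%, 66.7% and 33.3% of macrophages held a Ccl8 UMI in Tumor PBS, Tumor D-CAN, SAT PBS and SAT D-CAN, against 0.712% and 0.804% of cancer cells and 0.347% and 0% of B cells in the SAT libraries. Without thinning the macrophage shares were 53.9%, 55.3%, 82.1% and 62.5%. Phagocytes with fewer C1q genes had 198, 153, 8.31 and 3.01 CPM, below C1q+ macrophages in each library. In Tumor D-CAN, 15% of Ccl8 UMIs were counted in cancer cells, most of them in 1 cell with 285 Ccl8 UMIs that also held 35 C1qa, 20 C1qb, 9 C1qc and 52 Lyz2 UMIs.

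Ccl12 and Ccl8 are neighbours with a gap of 11.8 kb, and in macrophages of the PBS pair Ccl12 differed past 2-fold and Ccl8 did not. In the D-CAN pair the Ccl8 ratio depended on 1 cell, as given above. The 250 bases before the annotated start of each (RefSeq, GRCm38.p6) are printed because the genes are neighbours, with matches to the motifs TATAAA and GAGGAA, on either strand, in capitals. The Ccl12 window is chr11:82101595-82101844, plus strand, and the Ccl8 window chr11:82114935-82115184, plus strand.
Ccl12: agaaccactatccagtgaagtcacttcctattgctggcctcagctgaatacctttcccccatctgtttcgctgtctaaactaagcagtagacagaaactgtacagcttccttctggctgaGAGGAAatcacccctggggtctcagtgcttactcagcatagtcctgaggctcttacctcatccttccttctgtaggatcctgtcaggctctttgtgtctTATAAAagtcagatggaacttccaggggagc
Ccl8: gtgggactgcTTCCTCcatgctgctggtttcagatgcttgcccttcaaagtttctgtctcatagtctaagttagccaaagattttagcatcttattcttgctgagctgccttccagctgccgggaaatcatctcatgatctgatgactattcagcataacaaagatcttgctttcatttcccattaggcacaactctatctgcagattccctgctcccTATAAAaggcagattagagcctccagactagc

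Both windows hold TATAAA, as do 12.4% of 32851 promoters, and both hold GAGGAA, the core bound by PU.1 and related factors, as do 23.3%. In Ccl8 the latter reads TTCCTC on the strand printed. The other motifs searched on both strands were TTCNNNGAA (7.02% of promoters) and TGANTCA (6.75%), and neither window held these letters. The motifs searched did not overlap each other in these windows.

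Ccl3 and Ccl4, attractants of monocytes and lymphocytes, were not higher in tumor than in SAT macrophages in both pairs. Ccl3 was 146 CPM (121 to 174), 172 CPM (143 to 204), 209 CPM (138 to 304) and 94.7 CPM (48.9 to 165) in C1q+ macrophages of Tumor PBS, Tumor D-CAN, SAT PBS and SAT D-CAN. Its log2 ratio was -0.54 (-1.13 to 0.14) in the PBS pair, an interval that includes 0, and 0.81 (0.01 to 1.85) in the D-CAN pair. Ccl4 was 506 CPM (459 to 556) in Tumor PBS, 507 CPM (458 to 561) in Tumor D-CAN and 479.9 CPM (368 to 615) in SAT PBS, all within counting error of each other. In SAT D-CAN it was 47.3 CPM (17.4 to 103), with its 6 UMIs in 1 cell. Phagocytes with fewer C1q genes held 798, 341, 274 and 409.8 CPM of Ccl4 in Tumor PBS, Tumor D-CAN, SAT PBS and SAT D-CAN, above C1q+ macrophages in the first and the last and below them in the other libraries.

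In SAT, lymphocytes and neutrophils were further sources of Ccl3 and Ccl4. T and NK cells held 41.1 and 47.2 CPM of Ccl3 and 84.7 and 118 CPM of Ccl4 in the PBS and D-CAN libraries, with up to 83 Ccl4 UMIs in a cell. Within this class a cluster with 8 of 9 T cell markers, led by genes of NK cells (Ncr1, Xcl1, Ifng) and of T cells (Icos, Ctla4, Trdc), had 180 Ccl3 and 274 Ccl4 UMIs over both libraries, or 178 CPM and 270 CPM. A cluster with Cd8a and Cd8b1 had 24 Ccl3 and 199 Ccl4 UMIs, the latter 111 CPM, and a cluster with Lef1 and Tcf7, genes of naive T cells, had 5.88 CPM of Ccl4. Neutrophils numbered 16 and 19, and had 485 and 250.0 CPM of Ccl3 and 705 and 533 CPM of Ccl4. Endothelial cells of SAT D-CAN had 34 Ccl3 UMIs, which made up 13% of the Ccl3 of that library. They were all in 2 cells, each with more than 2 UMIs of the 6 phagocyte genes. No tumor cluster was named T, NK, B or neutrophil, so these sources were not compared between tissues. The small tumor group led by Trbc1, Trbc2 and Nkg7, within the phagocyte clusters, had 18 and 7 Ccl3 UMIs and 24 and 19 Ccl4 UMIs in Tumor PBS and Tumor D-CAN, or 897 and 330.3 CPM of Ccl4.

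Ccl6, a rodent chemokine of myeloid cells, was higher in SAT than in tumor macrophages of the PBS libraries. C1q+ macrophages held 435 CPM (392 to 482) in Tumor PBS, 459 CPM (412 to 511) in Tumor D-CAN, 991 CPM (827 to 1178) in SAT PBS and 521 CPM (403 to 663) in SAT D-CAN. The log2 ratio was -1.19 (-1.48 to -0.89) in the PBS pair and -0.19 (-0.56 to 0.22) in the D-CAN pair, which did not reach 2-fold. Phagocytes with fewer C1q genes went the other way, with 757 and 483 CPM in tumors and 95.5 and 87.4 CPM in SAT. When every cell of the phagocyte clusters was counted, the ratio of the PBS pair was 0.32, and 4 members were then higher in tumor in both pairs. In SAT the highest macrophage level was in a group led by Retnla, Pf4 and Mrc1, with 1313 CPM of Ccl6 in 40 PBS cells and 647 CPM in 13 D-CAN cells. Neutrophils of SAT held 441 and 649.9 CPM of Ccl6.

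Ccr2, the receptor that classical monocytes use to enter tissue, was more abundant in phagocytes with fewer C1q genes than in C1q+ macrophages in each library. The former held 339 CPM (273 to 417) in Tumor PBS, 338 CPM (282 to 403) in Tumor D-CAN, 253 CPM (194 to 325) in SAT PBS and 310.3 CPM (253 to 376) in SAT D-CAN. C1q+ macrophages held 77.6 CPM (60 to 98.8), 97.2 CPM (76.2 to 122), 186 CPM (119 to 276) and 86.8 CPM (43.3 to 155) in the same order. The intervals of both classes were apart in the tumor libraries and in SAT D-CAN, and overlapped in SAT PBS. In C1q+ macrophages the log2 ratio of tumor over SAT was -1.28 (-1.95 to -0.52) in the PBS pair and 0.11 (-0.76 to 1.23) in the D-CAN pair. Among groups within tumor cluster 8, Ccr2 was highest in the PBS library in 31 cells led by Xcr1 and Naaa, genes of dendritic cells, at 754 CPM. In the D-CAN library it was highest in 30 cells led by Slfn4, Rsad2 and Arg1, at 611 CPM, with 480.5 CPM in 33 cells of the former group. In SAT a group with Siglech, a gene of plasmacytoid dendritic cells, had 449 and 422 CPM, and the group with monocyte genes 258 and 376 CPM. The SAT cluster led by Ncr1, Ifng and Xcl1 had 129 CPM of Ccr2.

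Between D-CAN and PBS tumors, levels in C1q+ macrophages changed by under 2-fold for all 9 members, beside 1.41% of 6880 genes at least 2-fold higher and 2.01% lower. Ccl7 had the largest log2 ratio of D-CAN over PBS, at 0.99 (0.77 to 1.21), followed by Ccl2 at 0.57 (0.40 to 0.75) and Ccl12 at 0.44 (0.28 to 0.60). These 3 ligands of CCR2 were higher in the D-CAN tumor by more than counting error. Over the alternative settings the ratio ran from 0.64 to 1.0 for Ccl7, from 0.26 to 0.67 for Ccl2 and from 0.10 to 0.45 for Ccl12. The intervals of the other 6 members included 0, with ratios from -0.15 for Cx3cr1 to 0.32 for Ccr2. With 1 library a group, treatment and library cannot be told apart.

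In SAT, C1q+ macrophages of the D-CAN library had lower levels of several members than those of the PBS library, in 16 against 39 cells. Among the members with at least 20 UMIs over the SAT libraries, those at least 2-fold lower were Ccl4 with a log2 ratio of -3.24 (-4.84 to -2.14), Ccl2 with -2.61 (-4.24 to -1.46), Ccl7 with -2.50 (-4.13 to -1.34), Ccl3 with -1.11 (-2.26 to -0.11) and Ccr2 with -1.06 (-2.27 to -0.01). Ccl12, with 7 and 1 UMIs, and Cx3cr1, with 11 and 3, fell short of 20 UMIs and had ratios of -2.29 (-8.27 to 0.18) and -1.69 (-4.33 to 0.07), intervals that include 0. In this class 10.9% of 1849 genes were at least 2-fold lower and 13% higher. The ratio of Ccr2 turned to 1.08 when each cell had the same weight, to 0.32 with cells thinned to 1000 UMIs and to 0.11 over every cell of the phagocyte clusters. Over the alternative settings that of Ccl2 ran from -3.68 to -0.71 and that of Ccl4 from -6.47 to -0.16. The ratio of Ccl7 ran from -3.27 to -0.52 and that of Ccl3 from -1.96 to -0.73. In phagocytes with fewer C1q genes, Ccl2, Ccl4, Ccl7 and Ccr2 were higher and Ccl3 lower in SAT D-CAN than in SAT PBS. Ccl8 had a ratio of 0.41 (0.19 to 0.63), and of -1.49 without the richest cell.

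Stromal levels also differed between D-CAN and PBS tumors. Ccl2 was lower in fibroblasts of the D-CAN tumor, with a log2 ratio of -0.67 (-1.02 to -0.32), and higher in perivascular cells, with 0.51 (0.19 to 0.84). Neither reached 2-fold, and no counted member did in perivascular cells, beside 2.79% of 4624 genes higher and 3.72% lower. A single Tumor PBS fibroblast held 49 of 146 Ccl2 UMIs. Without the richest cells, fibroblast Ccl2 was 236 CPM (192 to 288) in Tumor PBS and 168 CPM (136 to 205) in Tumor D-CAN, with overlapping intervals. Over the alternative settings its ratio ran from -0.93 to 0.11. Not thinned, 21 of 83 and 22 of 65 fibroblasts held a Ccl2 UMI, a larger share in the D-CAN tumor. Fibroblast Cx3cr1 was lower, at -1.63 (-2.65 to -0.74), beside 2.27% of 5852 genes at least 2-fold higher and 2.56% lower. Its UMIs were in 6 of 83 fibroblasts of Tumor PBS and 8 of 65 of Tumor D-CAN, so the share of cells was not lower. Endothelial Ccl7 had 0 UMIs in the PBS tumor and 21 in the D-CAN tumor, at least 6.69-fold higher against the floor of 3 counts, but 1 cell of 38205 UMIs held 17 of the 21. Without it 4 UMIs or 15.8 CPM (4.3 to 40.5) remained, short of 20 UMIs. Endothelial Ccl8 had a ratio of -2.03 (-3.90 to -0.69), which rests on the Tumor PBS cell with 16 Ccl8 UMIs and C1q transcripts. Without the richest cells its levels were 18.2 CPM and 10.3 CPM, at a ratio of -0.73. These stood beside 3.99% of 4384 genes higher and 3.06% lower.

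In SAT, stromal levels of Ccl2 and Ccl7 did not differ between libraries beyond counting error, from few UMIs. Fibroblast Ccl2 had a log2 ratio of D-CAN over PBS of -0.57 (-1.16 to 0.00), Ccl7 of -0.10 (-0.89 to 0.67) and Ccl8 of -0.70 (-1.62 to 0.15), and none of these reached 2-fold, beside 3.84% of 4998 genes higher and 4.54% lower. Perivascular Ccl2 had a ratio of -0.45 (-2.04 to 0.91), beside 6.43% of 5084 genes higher and 5.86% lower. Endothelial Ccl2 had -0.10 (-1.33 to 1.09), while Ccl3 was higher at 3.15 (1.81 to 5.26), from 34 UMIs in 2 cells that also held UMIs of the phagocyte genes. In endothelial cells without such UMIs the Ccl3 ratio was -2.15. Endothelial Ccl8, with 1 UMI against 17 and so under 20 in all, had -3.33 (-9.26 to -1.20). In that class 1.92% of 8451 genes were at least 2-fold higher and 2.52% lower.

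Ligands of CCR2 tended to occur in the same tumor macrophages. Of 132 C1q+ macrophages with a Ccl2 UMI after thinning, 53.0% also held Ccl7, against 12.5% of 433 without Ccl2. The difference was present in each library, at 51.4% against 10.0% in Tumor PBS and 55.2% against 16.5% in Tumor D-CAN. Ccl12 was seen in 54.5% of cells with Ccl2 and 25.9% of those without it. Ccl4 was seen in 43.6% of cells with Ccl3 and 16.9% without. Ccl6 and Cx3cr1 were apart, with Cx3cr1 in 17.6% of cells with Ccl6 and 41.7% of those without. Of the 72 ordered pairs of members, 12 had intervals that did not overlap. Pairs of other genes were not counted, so this number has no background and is a description only.

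The pairing of Ccl2 with Ccl7 was found in other classes as well. In fibroblasts it was not clear in Tumor D-CAN or SAT D-CAN, nor in thinned SAT fibroblasts, where the intervals overlapped. In tumor phagocytes with fewer C1q genes, 50% of cells with Ccl2 held Ccl7 and 4.97% of those without. In tumor perivascular cells Ccl7 was in 30.4% of 23 cells with Ccl2 and 5.56% of 108 without, and, not thinned, in 52.2% of 46 and 7.76% of 116. After thinning, the intervals within each tumor library alone overlapped. In T and NK cells of SAT, Ccl4 was in 43.5% of 23 cells with Ccl3 and 3.16% of 1234 without. Phagocytes with fewer C1q genes and the T and NK class mix cell types, and the part of that mixture in these shares was not tested. Cells within a library share its preparation and are not replicates, and in cells that were not thinned, deeper cells are more apt to show both transcripts.

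Tumor C1q+ macrophages fell into 4 clusters in which members had different levels. Cluster 3 was led by Apoe, C1qa, Lyz2 and Arg1, cluster 6 by Csf1r and Stab1, among others, cluster 8 by H2-Ab1, Cd74 and Ly6c2, and cluster 13 by Gatm, Fcer1g and Ctsc. Ccl2 was lower in cluster 6, at 195 and 198 CPM in the PBS and D-CAN tumors, than in cluster 3, at 527 and 874 CPM. Ccl8 had 3022 and 3441 CPM in cluster 6 and 2679 and 2815 CPM in cluster 3. The 32 and 23 macrophages of cluster 13 had 1136 and 1443 CPM of Ccl12, but 1 cell of each library held 46.8% and 40.4% of those UMIs, and 1 cell held 51.3% of the 117 Ccl2 UMIs of Tumor PBS. Within cluster 8, a group of phagocytes led by Slfn4, Rsad2 and Arg1, of 40 PBS and 30 D-CAN cells, had 1598 and 1238 CPM of Ccl2 and 1483 and 908 CPM of Ccl4. The members were not among the genes used for clustering.

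Over 31 combinations of class and library with enough cells and UMIs, the genes whose levels followed each member most closely were named by correlation. Pearson's r of log2(CPM + 1) with Ccl12 was 0.94 for Fcgr1, 0.92 for Tbxas1 and 0.92 for C5ar1. Ccl8 went with Hexa and C1qc at 0.85 and C1qa at 0.83, and Ccl6 with Itgam at 0.94. Ccl2 and Ccl7 both had Cmklr1, a chemoattractant receptor of macrophages, as their closest gene, at 0.91 and 0.89. For Ccl3 and Ccl4 it was Myo1f, at 0.89 and 0.92, for Ccr2 it was Fyb, at 0.90, and for Cx3cr1 it was Mapkapk2, at 0.86. These values describe points that share libraries, depth and cell classes, and the C1q genes also defined the macrophage class.

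Other genes of the chemokine system were read from lists, of which few members were expressed. Of 12 other CC and CX3C ligands, 3 had at least 20 UMIs in C1q+ macrophages. Ccl5, a chemokine of T cells and macrophages, was higher in tumor, with log2 ratios of 3.41 and 2.79, and Ccl24, a ligand of CCR3, was lower, with -4.91 and -3.25. Ccl9 had -0.53 and -0.35. Of 13 other CC receptors and atypical receptors 4 were counted, and Ccr1, at 2.47 and 2.64, was higher while Ccr7 was lower. Of 6 colony-stimulating factors, Il34 and their receptors 3 were counted and none passed 2-fold in both pairs, with Csf1r at -0.30 and -0.60. Of 15 immediate early genes 4 were lower and none higher, and their sum was 3648, 3634, 5317 and 8799 CPM in macrophages of Tumor PBS, Tumor D-CAN, SAT PBS and SAT D-CAN.

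The same lists were read in the other classes. In fibroblasts 2 of 3 counted ligands, Ccl17 and Cx3cl1, were higher in tumor and both counted receptors, Ackr1 and Ackr2, lower, and neither of the 2 growth factor genes passed. In perivascular cells neither of 2 ligands passed, the 1 receptor counted, Ccrl2, was lower, and of 3 growth factor genes Csf1 was higher and Csf2rb lower. In endothelial cells Ccl5 was lower among 3 ligands, Ackr1, an atypical receptor that binds CCL2, was lower among 3 receptors, and neither of 2 growth factor genes passed. Of the immediate early genes counted, 4 of 13 were lower in tumor fibroblasts, 10 of 13 in perivascular cells and 9 of 15 in endothelial cells, while Cxcl2 was higher in fibroblasts and perivascular cells.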

How the data were processed

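Each of the 4 groups was 1 single-cell library, from a 10x 3′ kit. The authors aligned reads with Cell Ranger (3.1.0 in the submitters' processing notes, with STAR 2.6, and 3.0.2 in the header of SAT D-CAN) to mm10 with Ensembl 93 genes, and deposited raw UMI counts per gene and cell for called cells, without normalization. Positions are from the GENCODE vM21 annotation.

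Cells with at least 200 genes were clustered per tissue in Seurat 5.3.0 (R 4.3.3) from 2000 variable genes, 10 principal components and resolution 0.8, with the members and list genes left out of the variable genes. A class needed at least 3 markers, each in at least 10% of the cells and at 10% or more of its highest cluster level. These thresholds, and the gate of 2 of 3 C1q genes, were set after the clusters were seen. The gate leaves 45, 29, 10 and 2 phagocytes with UMIs of exactly 1 C1q gene outside in Tumor PBS, Tumor D-CAN, SAT PBS and SAT D-CAN. Tumor clusters with high mitochondrial shares, and a pair of SAT clusters led by genes of another class, stayed unnamed. Scrublet in scanpy 1.11.5 marked 16 of 9128 cells and was taken not to have worked, so no doublets were removed. Libraries shared at most 2 barcodes. Sums, thinning and intervals were computed in Python 3.11.15 (pandas 2.3.3, numpy 2.4.6 and scipy 1.17.1). No test was run, since each group had 1 library. Scripts were tested on simulated data.

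The 9 members and 4 gene lists were chosen with earlier results of these data known. Examples were the members, list genes that passed 2-fold, and the list genes with most UMIs. For similarity, the 3 genes with the highest correlation were taken over classes with at least 30 cells. Alternatives covered cell filters, clustering, depth, the C1q gate, single rich cells and phagocyte UMIs. A few genes and a sequence are not reported here.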

Additional observations from a re-analysis of the deposited data

Results flagged for a closer look

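The log2 ratio of D-CAN over PBS in C1q+ macrophages had opposite signs in tumor and SAT for a pair of CCR2 ligands. For Ccl2 it was 0.57 in tumors and -2.61 in SAT, and for Ccl7 it was 0.99 in tumors and -2.50 in SAT. These were picked out because the library of each tissue moved the opposite way, and the difference between tissues was not tested, since each group was 1 library. The SAT ratios rest on 6 UMIs of each gene in the 16 macrophages of SAT D-CAN. They also depend on the C1q gate, which was set after the clusters were seen. In SAT phagocytes with fewer C1q genes, both genes were higher in D-CAN. Over every cell of the phagocyte clusters the SAT ratios were -0.71 for Ccl2 and -0.52 for Ccl7, under 2-fold.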

How the results depend on the processing

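No paired analysis was possible because each group was 1 library and the labels give no replicate numbers. Ccl12 and Cx3cr1 remained the members at least 2-fold higher in tumor C1q+ macrophages in both pairs under every setting tried, and Ccl2 joined them as higher with at least 500 genes a cell, with 1 or more C1q genes and with all 3. The number of members higher was 4 over every cell of the phagocyte clusters. Ccr2 was at least 2-fold lower in both pairs after thinning. In fibroblasts it went from 1 to 2 with at most 20% mitochondrial UMIs, resolutions 0.4 and 1.2, 20 principal components, all variable genes, thinning to 1000 UMIs or SAT cluster 11 counted as fibroblasts, and to 3 without the highest doublet scores, with a mean over cells, or without the richest cells. In perivascular cells Ccl8 joined at resolution 0.4. With nothing added to the sums the number of members higher there went from 3 to 1, since Ccl7 and Cx3cr1 had a SAT sum of 0 and so no ratio. In endothelial cells it went from 3 to 1 without phagocyte UMIs, and to 2 without the highest doublet scores, which lost Ccl8, and after thinning or with a mean over cells, which lost Ccl2, and Ccl3 was lower with at most 20% mitochondrial UMIs. With nothing added to the sums, Ccl2 took the place of Cx3cr1 in fibroblasts, as Cx3cr1 had a sum of 0 in SAT D-CAN and so no ratio in that pair.

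For D-CAN against PBS in tumor, the number of members past 2-fold went in C1q+ macrophages from 0 to 1 with all variable genes, in fibroblasts from 1 to 0 and in perivascular cells from 0 to 1 after thinning, and in endothelial cells from 2 to 4 after thinning, 1 with nothing added and 0 without phagocyte UMIs. With nothing added, endothelial Ccl7 had no ratio because its Tumor PBS sum was 0 UMIs. Without the 10 richest cells, phagocytes of SAT D-CAN held over 50% of 1 member instead of 4. Pairs of members with intervals apart numbered 19 without thinning instead of 12.

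The number of genes higher in tumor C1q+ macrophages was 325, and 991 with a mean over cells, 185 after thinning, 122 with at least 100 UMIs and 968 in the PBS pair alone. The number lower was 440, and 1248, 66 and 970 in the last 3. With at least 100 UMIs and in the PBS pair alone, the numbers were 290 and 1195 higher and 209 and 1090 lower in fibroblasts, 242 and 1100 higher and 265 and 1421 lower in perivascular cells, and 190 and 1132 higher and 267 and 1355 lower in endothelial cells, which had 854 higher after thinning.

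Of the ratios at or past 2-fold with an interval apart from 0 and at least 20 UMIs, the following turned sign, namely those of Ccr2 in C1q+ macrophages of SAT, D-CAN over PBS, at 1.08 with a mean over cells, 0.32 after thinning and 0.11 over every phagocyte, of Ccl6 in the PBS pair at 0.32 over every phagocyte, of endothelial Ccl2 in the D-CAN pair at -0.028 after thinning, and, in endothelial cells without phagocyte UMIs, of Ccl8 between tumors at 0.33, of Ccl3 in the D-CAN pair at 2.07 and of Ccl3 between SAT libraries at -2.15. The cause was not tested. Of the log2 ratios under alternatives, 1037 stayed within the counting interval of the reported ratio, 126 moved beyond it, and the remaining 8 were those just named. Smaller or less certain ratios were not counted as turned, and some changed sign too. Those in C1q+ macrophages of the PBS pair ran from -0.86 to 1.81 for Ccl2 and -0.93 to 1.74 for Ccl7, and that of Ccl8 in the D-CAN pair from -0.44 to 1.58. The C1q gates, the settings without richest cells or phagocyte UMIs, and the count of SAT cluster 11 were chosen after seeing the data. SAT macrophages numbered 39 and 16, and a ratio there rests on as few as 1 UMI.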
